A study of Mus musculus with 3 samples.

Results

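Cells of the mouse periodontal ligament line PDL-L2 that had received a control siRNA pool (siCont) were compared after 12 h with recombinant human BMP-2 (rhBMP-2) or with vehicle. The comparison uses 2 of the 3 arrays of the series, 1 siCont vehicle array and 1 siCont BMP-2 array, and the groups were taken from the sample labels. Both cultures carried the non-targeting SMARTpool siRNA, and rhBMP-2 at 250 ng/ml or its vehicle was added 48 h after transfection in differentiation medium with ascorbic acid and beta-glycerophosphate. The remaining array is of cells that received an siRNA pool against endoglin (siENG) and the same dose of rhBMP-2 for the same time, and its signal is given beside the others, as siENG. That array shares the vehicle array in any comparison with untreated cells, and it is brighter than both siCont arrays, with a 2% trimmed mean of 166 against 141 for vehicle and 143 for siCont BMP-2. PDL-L2 is a single immortalised line, so the arrays hold no variation between animals or between lines.

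A probe set is a group of array probes for 1 transcript, and its signal is a linear intensity as deposited. For each probe set the siCont BMP-2 signal was divided by the vehicle signal and log2 was taken, and a probe set was kept where the higher of its 2 signals was at least 152, the 75th percentile of all signals. This left 11366 of 45101 probe sets, for 6723 of 18193 genes, and a gene is described by its brightest probe set. With 1 array per condition there is no replicate, no error of a difference and no test, so a gene is called higher or lower where its ratio is 1.5-fold or more. The check available inside the data is the agreement between probe sets of the same gene on the same 2 arrays. It measures the probes and not the variation between cultures. In a bulk RNA sample, fewer cells of a type and less RNA per cell cannot be told apart.

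BMP-2 is a ligand of the TGF-β superfamily that assembles type I and type II serine/threonine kinase receptors, which phosphorylate Smad1, Smad5 and Smad9. These Smads enter the nucleus with Smad4 and raise transcription of the Id genes, of the inhibitory Smads Smad6 and Smad7, and of homeobox genes such as Msx2 and the Dlx genes. In periodontal ligament, which stays unmineralised between cementum and bone, BMP-2 is known as an inducer of osteoblastic differentiation. For periodontal ligament cells the study cites its earlier work, in which endoglin-mediated BMP-2 signalling depended on Smad2. That signalling did not depend on phosphorylation of Smad1, Smad5 and Smad8 (another name of Smad9).

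Precision depended on signal. In 6 bins of mean signal, the robust SD of the log2 ratio over all probe sets kept was 0.26 in the dimmest bin and 0.10 in the brightest. These SDs hold true differences as well as noise. The spread of log2 ratios between probe sets of 1 gene had a robust SD of 0.10. Just inside the signal limit lay 2300009A05Rik, with 136 for vehicle and 152 for BMP-2, and just outside it lay Mterf4, with 143.2 and 151.8. Endoglin itself did not separate the siCont arrays. Its 2 probe sets read 286 and 121 with vehicle and 299 and 121 with BMP-2, whereas the siENG array read 108 and 45.3.

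Some markers of fibroblasts and ligament were bright and most were dim. Vimentin had a signal of 7200 with vehicle and 6385 with BMP-2, S100a4 had 7167 and 7380, and periostin (Postn), a matricellular protein of the ligament, had 4428 and 5491. Of 35 matched ligament and tendon genes, 13 were kept and 22 were below the limit on both arrays. Against 2.05% of all genes kept, 3 of the 13 were higher with BMP-2. These were tenascin-C (Tnc), at 204 and 341, and the homeobox gene Prrx2 and the proteoglycan Fmod, both of which the study listed as induced. Among the 22 dim genes were general fibroblast and ligament markers. Thy1 had 6.6 with vehicle and 12.6 with BMP-2, decorin (Dcn) 8.5 and 18, biglycan (Bgn) 27.8 and 41.5, Pdgfra 58.2 and 88.0, and asporin (Aspn) 0.8 and 2.4. The tendon-defining genes were dim too: the transcription factor Scx had 27.3 and 33.6, Mkx had 107 and 112, and tenomodulin (Tnmd) had 10.3 and 5.5. On the lists of leukocyte, endothelial, epithelial, and Schwann cell and neuron markers, no gene reached the limit either. Markers outside these lists were not searched. The brightest of 19 leukocyte markers had 76.3, of 13 endothelial markers 42.9, of 14 epithelial markers 54.5 and of 13 Schwann cell and neuron markers 143. Their summed signals were 345 with vehicle and 317 with BMP-2 for leukocytes, 154 and 184 for endothelium, 227 and 231 for epithelium, and 323 and 311 for Schwann cells and neurons.

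More genes were higher than lower with BMP-2. Of the 6723 genes kept, 138 (2.05%) were higher by 1.5-fold or more and 60 (0.892%) were lower, and 34 (0.506%) were higher by 2-fold or more against 6 (0.0892%) lower. The median log2 ratio of all genes kept was 0.02, with 3643 ratios above 0 and 3077 below 0. Among probe sets the shares were 2.09% higher and 0.827% lower. The shares of all genes kept are the base for the counts within each group below. The study's lists of induced and suppressed genes were drawn from these same arrays, so the array values of their members are no independent evidence of a direction. For Fabp7, Smad6, Grhl1, Smad7, Fst and Tgfb3 the study also reported induction by real-time PCR in independently prepared samples. It reported induction of Id4 by real-time PCR and of its protein by Western blotting. Of 59 induced genes matched here, 42 were kept and all 42 were higher, and of 15 suppressed genes matched, 7 were kept and 5 were lower. Outside those lists 6674 genes remained, of which 96 (1.44%) were higher and 55 (0.824%) lower, and at 2-fold 5 (0.0749%) were higher and 2 (0.03%) lower. A gene can pass the limit on 1 array alone, which favours a difference. Of the 138 higher genes, 94 were at or above the limit on both arrays, as were 39 of the 60 lower genes.

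**Figure D1:**
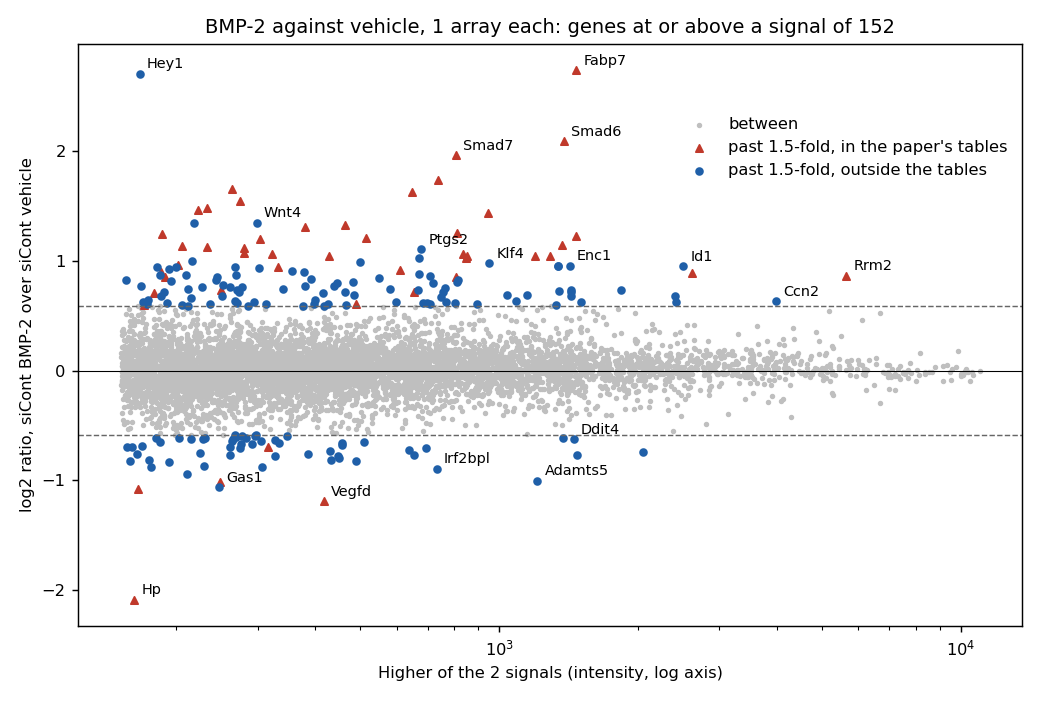
Each point is 1 of the 6723 genes kept, placed by the higher of its 2 signals (horizontal, log axis) and by its log2 ratio with siCont vehicle as the base (vertical), 1 array each. Dashed lines mark 1.5-fold, triangles are genes of the study's lists and circles are genes outside them; Hey1 stands at 2.70 beside Fabp7 at 2.73, and Gas1 and Adamts5 are the lowest genes outside the lists, at -1.06 and -1.0.

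Probe sets of the same gene mostly lay on the same side of 0 in the genes called higher or lower. Of the 138 higher genes, 43 had 2 or more probe sets past the limit. In 42 of these (97.7%) all probe sets lay above 0, and in 29 (67.4%) all were past 1.5-fold. The brightest probe sets of these genes had a median log2 ratio of 0.75 and their other probe sets 0.78. Of the 60 lower genes, 16 had 2 or more probe sets, with 15 (93.8%) all below 0 and 7 (43.8%) all past 1.5-fold. Here the medians were -0.77 for the brightest and -0.54 for the others. For genes called in neither direction, 1513 of 2437 (62.1%) had all probe sets on one side of 0. Over all 2496 genes with 2 or more probe sets, 62.9% had them on one side of 0, 1.16% were higher in every probe set and 0.28% lower in every one. The exceptions were Ints6, at 0.60 and -0.05, and Rnf185, at -0.83 and 0.03. The other 95 higher and 44 lower genes rested on 1 probe set and have no such check.

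**Figure D2:**
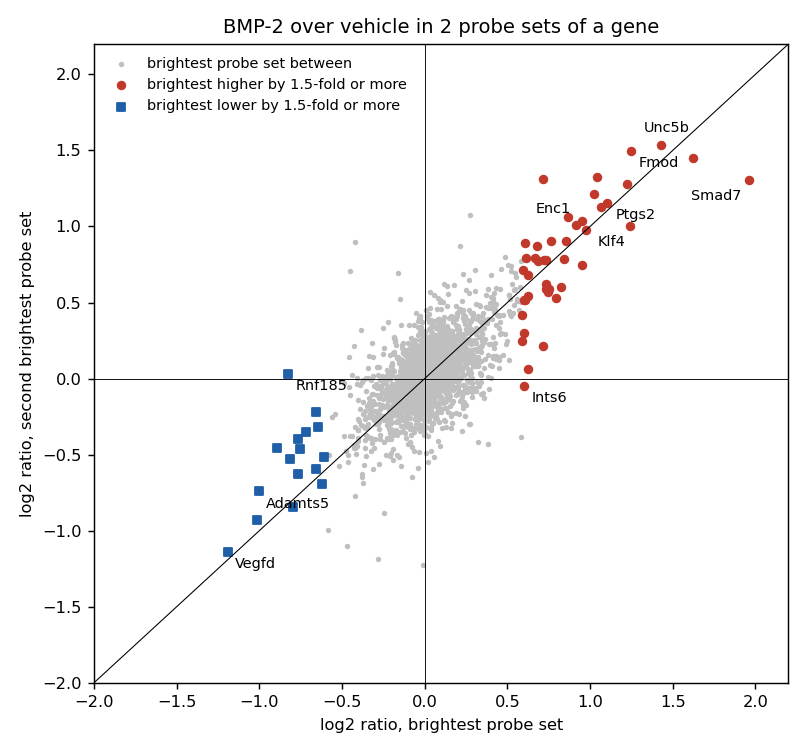
Log2 ratio of BMP-2 against vehicle in the brightest (horizontal) and the second brightest probe set (vertical) of each of the 2496 genes with 2 or more probe sets past the limit. Circles and squares are genes whose brightest probe set was higher or lower by 1.5-fold or more, grey points are the other genes, and the diagonal marks equal ratios; Rnf185 and Ints6 are the called genes whose second value falls on the other side of 0.

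Genes known from other systems as direct targets of Smad1, Smad5 and Smad9 had ratios above 0 in every member kept. Of 27 matched targets, 12 were kept, all 12 had a ratio above 0, and 8 were higher by 1.5-fold or more against 2.05% of all genes. Their median log2 ratio was 0.94, against 0.02 for all genes kept. Among them 8 were past the limit on both arrays, with 5 higher and a median of 0.79. Smad6, Smad7 and Id4 are on the study's list of induced genes, and the median of the other members was 0.62 with 5 higher. The remaining 15 were below the limit on both arrays.

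The inhibitory Smads block the receptors and receptor Smads that induce them. Smad6 had a signal of 325 with vehicle and 1382 with BMP-2 in siCont cells and of 1388 in siENG cells. Smad7 had 207, 806 and 685 in the same order, and its 2 probe sets gave log2 ratios of 1.96 and 1.31. Both BMP-2 arrays were far above the vehicle array for these genes.

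The Id genes encode helix-loop-helix proteins without a DNA-binding region, which sequester other factors of that family. Id1 read 1296 with vehicle, 2501 with BMP-2 and 2105 with siENG, a log2 ratio of 0.95. Id2 read 1570, 2420 and 1915, and its 3 probe sets gave ratios between 0.62 and 0.76. Id3 read 3541, 5170 and 4576 and stayed under 1.5-fold at 0.55. Id4, the member on the study's list, read 83.6, 233 and 127. All Id genes were thus lowest with vehicle and highest on the siCont BMP-2 array.

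Hey1, a transcriptional repressor shared by the BMP and Notch pathways, had the second largest ratio of all genes kept. Its signal was 25.6 with vehicle, 167 with BMP-2 and 131 with siENG, a log2 ratio of 2.70. It rests on 1 probe set, and its vehicle signal is close to the array median of 22.8, so the size of the ratio is poorly set. The zinc finger factor Klf4 read 484, 953 and 792, and its 2 probe sets both gave 0.98. Msx2, a homeobox repressor of mineralisation genes, read 101, 192 and 143, a ratio of 0.93, while its other probe set was dim at 21.0 and 21.3. Atoh8 read 117, 170 and 195 and stayed under 1.5-fold. The BMP-binding protein Bmper and the growth arrest gene Gadd45g were nearly level, at 0.12 and 0.13.

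The sequence before the start of transcription is shown for 4 genes that differed with BMP-2 and matched no name on the study's lists. For Ptgs2 this is uncertain, as given below with the prostaglandin genes. They were picked because they hold GGCGCC, whereas the windows of Klf4, Msx2, Orm2, Nrp1 and Runx1, among others, do not. These GC-rich letters are known as a binding element of the BMP-activated Smads. Each line holds the 250 bases upstream of the RefSeq start in GRCm38.p6, 5′ to 3′ on the gene's strand, with GGCGCC in capitals. Id2 lies at chr12:25096093-25096342 on the minus strand, Wnt4 at chr4:137277385-137277634 on the plus strand, Ptgs2 at chr1:150099781-150100030 on the plus strand, and Gas1, a gene that was lower, at chr13:60177536-60177785 on the minus strand.
Id2: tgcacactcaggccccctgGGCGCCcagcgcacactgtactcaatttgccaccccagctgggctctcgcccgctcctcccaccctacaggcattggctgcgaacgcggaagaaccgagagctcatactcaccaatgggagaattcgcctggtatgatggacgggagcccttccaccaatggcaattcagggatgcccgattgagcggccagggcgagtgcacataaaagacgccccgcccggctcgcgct
Wnt4: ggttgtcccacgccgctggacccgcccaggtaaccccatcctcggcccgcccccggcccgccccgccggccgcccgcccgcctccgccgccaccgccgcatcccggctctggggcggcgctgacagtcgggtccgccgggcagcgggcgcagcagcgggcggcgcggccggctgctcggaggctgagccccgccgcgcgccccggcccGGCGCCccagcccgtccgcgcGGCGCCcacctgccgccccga
Ptgs2: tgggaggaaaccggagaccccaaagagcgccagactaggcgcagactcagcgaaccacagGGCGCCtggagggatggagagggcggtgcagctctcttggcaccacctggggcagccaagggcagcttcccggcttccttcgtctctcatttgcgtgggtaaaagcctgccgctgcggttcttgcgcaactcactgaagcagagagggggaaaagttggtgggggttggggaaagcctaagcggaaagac
Gas1: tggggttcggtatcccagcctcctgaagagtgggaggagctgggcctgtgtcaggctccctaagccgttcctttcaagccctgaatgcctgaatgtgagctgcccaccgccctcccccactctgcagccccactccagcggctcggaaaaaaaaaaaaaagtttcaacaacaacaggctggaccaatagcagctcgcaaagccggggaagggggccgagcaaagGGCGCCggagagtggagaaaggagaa
The match begins 231 bases before the start in Id2, 42 and 21 bases before it in Wnt4, 190 in Ptgs2 and 26 in Gas1. GGCGCC reads the same on both strands and was present in 9.59% of 32851 RefSeq promoters of this length and in 18.3% of those of genes kept. It was present in 31 of 138 promoters (22.5%) of 102 higher genes and in 11 of 56 (19.6%) of 43 lower genes. The share in either group was thus near that of all genes kept. A gene can have several promoters in these counts, and the remaining called genes had none. Of 9 promoters of BMP targets kept, 2 held GGCGCC. The palindrome GTCTAGAC was present in 0.167% of all promoters and in none of the called genes. The letters CAGACA, searched on both strands, were present in 17.1% of all promoters, 12.7% of those of genes kept, 11.6% of those of higher genes and 14.3% of those of lower genes. A match describes letters only.

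Genes known as targets of Smad2 and Smad3, the receptor Smads of TGF-β, were also shifted upwards, though mostly through genes on the study's list. Of 36 matched, 29 were kept, 24 had ratios above 0, 9 were higher and none was lower, with a median of 0.38. Over all genes kept, 3643 of 6723 had ratios above 0, 2.05% were higher and 0.892% lower, and the median was 0.02. Outside the list the median was 0.08 and 3 of 23 were higher, against 1.44% of all genes there. Those were Bhlhe40 and the matricellular proteins Ccn1 and Ccn2. Ccn1 read 1103 with vehicle, 1836 with BMP-2 and 2563 with siENG, with 4 probe sets between 0.54 and 0.73. Ccn2, also known as connective tissue growth factor, read 2567, 3976 and 3585, a ratio of 0.63 on 1 probe set. The fibrogenic targets did not share this: Col1a1 stood at -0.06, Col3a1 at -0.02 and smooth muscle actin (Acta2) at -0.08, and the cell cycle inhibitor Cdkn2b was at -0.50.

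The receptors and ligands of the family moved little. Of 24 genes kept from 36 matched, 3 were higher, against 2.05% of all genes kept. All 3 were from the study's list (Smad6, Smad7 and Tgfb3), and the median was 0.07. The type I BMP receptor Acvr1 read 252 with vehicle, 374 with BMP-2 and 299 in siENG cells, and its 2 probe sets gave 0.45 and 0.57. Smad1 read 505, 738 and 858, with 3 probe sets between 0.55 and 0.66, and the type II receptor Bmpr2 was at 0.46. All these lay under 1.5-fold for the brightest probe set. Tgfb1 and Tgfb2 were on the other side of 0, at -0.48 and -0.40. Among 7 antagonists kept of 17 matched, Nbl1, a secreted BMP binder, read 258, 438 and 447, a ratio of 0.77. Follistatin (Fst), which binds activins, was on the study's list, at 1.04 and 1.32 in 2 probe sets.

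In the Notch pathway the higher genes were 2 effectors and a glycosyltransferase. Of 20 genes kept of 31 matched, 3 were higher and 1 was lower, against 2.05% and 0.892% of all genes kept. The median was 0.08. Besides Hey1 and the listed Hes1, the fringe enzyme Lfng, which modifies Notch receptors, read 135 with vehicle, 227 with BMP-2 and 155 with siENG. The ligand Jag1 was at 0.48. Notch3 and Notch1 had ratios of -0.56 and -0.35, and Dtx4, on the study's list of suppressed genes, was at -0.69. None of the 3 higher genes was past the limit on both arrays.

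Of 17 Wnt pathway genes kept from 52 matched, 3 were higher and 1 was lower, and the median was 0.06. Outside the study's lists 2 of 16 were higher and 1 was lower, against 1.44% and 0.824% of all genes there. Wnt4, a secreted ligand, read 118 with vehicle, 299 with BMP-2 and 212 with siENG, a log2 ratio of 1.34. Its second probe set lay below the limit, at 39.8 and 76.8. The receptor Fzd6 read 415, 720 and 562, with 0.80 and 0.53 in 2 probe sets. Fzd1 was just under 1.5-fold at 0.57, and Fzd7 was on the study's list. Fzd8 went the other way, from 181 to 119 with 145 on the siENG array. Receptors of 1 family thus lay on both sides.

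The lowest gene outside the study's lists belonged to the Hedgehog pathway. Gas1, a membrane co-receptor for Hedgehog ligands, read 248 with vehicle, 119 with BMP-2 and 107 with siENG, a log2 ratio of -1.06. Its 2 other probe sets were below the limit and also lower, at 110 against 64.1 and 5.7 against 2.3. The other 7 pathway genes kept were within 1.5-fold, with the co-receptor Cdon at 0.42, the receptor and target Ptch1 at 0.39 and Disp1, which releases the ligands, at -0.43. None of 6 FGF pathway genes kept (median 0.13) and none of 7 IGF pathway genes kept (median -0.03) was past 1.5-fold.

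Among 11 genes kept of the VEGF and PDGF families, 2 were higher and 1 was lower. Over all genes kept the shares were 2.05% and 0.892%. Neuropilin-1 (Nrp1), a co-receptor for VEGF and class 3 semaphorins, read 454 with vehicle, 765 with BMP-2 and 599 in siENG cells, and its 3 probe sets gave ratios between 0.59 and 0.75. The receptor Pdgfrb and the ligand Pdgfc were at 0.38 and 0.35. Pgf and Vegfd, at 1.13 and -1.19, were on the study's lists, and 3 probe sets of Vegfd lay between -1.36 and -1.14.

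Guidance genes for axons and vessels held a few of the larger ratios. Of 17 kept from 62 matched, 4 were higher and none was lower, against 2.05% and 0.892% of all genes kept. The median was 0.06. Outside the study's lists 2 of 15 were higher, against 1.44% of all genes there. Efnb2, a membrane-bound ephrin ligand, read 163 with vehicle, 271 with BMP-2 and 142 with siENG, with 0.74 and 0.78 in 2 probe sets. The semaphorin receptor Plxnd1 read 645, 1041 and 614, a ratio of 0.69. The siENG array lay below the vehicle array in Plxnd1 and in the brightest probe set of Efnb2, but not in the second probe set of Efnb2, at 105, 181 and 116. Unc5b, a netrin receptor, at 1.43, and Dpysl3 at 1.22 were on the study's list. The ligand Sema3e was at -0.53.

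The matrix did not shift as a whole. Collagen chains had a median of 0.04 over 16 kept, and only Col6a3 was higher, at 111 with vehicle, 174 with BMP-2 and 163 with siENG. Both probe sets of Col18a1, a basement membrane collagen, gave 0.51 and 0.55. Enzymes that modify and crosslink collagen had none of 18 past 1.5-fold. Single proteins differed instead. Of 11 proteoglycans kept, 4 were higher and 1 was lower, against 2.05% and 0.892% of all genes kept. Syndecan-1 (Sdc1), a cell surface heparan sulfate carrier, read 1504, 2407 and 1742, with 4 probe sets between 0.50 and 0.87. Fmod, Prg4 and Sdc3 (higher) and Ogn (lower, at -1.01 and -0.93) were on the study's lists.

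Matrix proteases gave differences in both directions. Of 26 kept from 60 matched, 4 were higher and 1 was lower, against 2.05% and 0.892% of all genes kept. Adamts5, an aggrecanase, read 1210 with vehicle, 604 with BMP-2 and 664 in siENG cells, and its 3 probe sets past the limit gave -1.0, -0.74 and -0.66. Both BMP-2 arrays were thus lower than the vehicle array in this gene. Adam12, a membrane metalloprotease, read 109, 216 and 213, a ratio of 0.99. Pcolce2, an enhancer of procollagen C-proteinase, read 862, 1433 and 873, so that only the siCont BMP-2 array was high. The inhibitor Timp1 was at 0.54, whereas Timp2 and Timp3 were at -0.02 and -0.20. Mmp14, a membrane-anchored collagenase, was level at -0.02.

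Adhesion and contractile genes were centred slightly below 0, with medians of -0.04 over 17 and -0.03 over 23 kept. Tensin-1 (Tns1), which links integrins to actin, read 1375 with vehicle, 901 with BMP-2 and 721 with siENG, with 3 probe sets between -0.61 and -0.52. Zyxin (Zyx), another focal adhesion protein, was at -0.45, and the integrin subunits Itga3 and Itgb5 were at -0.50 and 0.42. Npnt and Csrp2, the higher members, were on the study's list.

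Junction genes showed how far the brightest probe set can decide a call. Gja1 encodes connexin 43, the main gap junction protein of osteoblastic cells. Its brightest probe set read 1373 with vehicle, 1974 with BMP-2 and 752 with siENG, a ratio of 0.52 that missed 1.5-fold. The 4 other probe sets past the limit gave 0.71 to 0.91, and on all 5 the siENG array was lowest. No other junction gene of 11 kept reached that size.

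Osteoblast genes had ratios near 0 at this time. Of 31 matched, 11 were kept, with a median of -0.01, and Msx2 was the only member past 1.5-fold. Osteonectin (Sparc), Col1a1 and Col1a2 were level, at -0.01, -0.06 and 0.03. The vitamin D receptor (Vdr) read 536 with vehicle, 681 with BMP-2 and 448 with siENG, with 0.35 and 0.36 in 2 probe sets. Other osteoblast markers stayed below the limit. Alkaline phosphatase (Alpl) had 20.1, 44.8 and 35.2, Sp7 had 38.4, 56.5 and 26.3, and bone sialoprotein (Ibsp) had 12.5, 11.7 and 4.6. Alpl and Sp7 thus read higher with BMP-2 than with vehicle, at dim signals. Only 3 of 25 cartilage genes were kept, and aggrecan (Acan) and Sox9 were not among them.

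Transcription factors of the jaw skeleton lay mostly above 0. Of 10 homeobox genes kept from 28 matched, 4 were higher, against 2.05% of all genes kept. The median was 0.43, but Dlx1, Dlx2 and Prrx2 among the 4 were on the study's list. Of the others, Tgif1 was at 0.47, Meis2 at 0.40 and Shox2 at 0.32, while Prrx1 was at -0.18. All 9 Krueppel-like and Egr factors kept had ratios above 0, against 3643 of 6723 genes kept, with a median of 0.24. Past 1.5-fold there were only Klf4 and the listed Klf10. Klf3 and Klf9 both had 0.33. Several of these genes had probe sets on both sides of 0, with 3 of the 6 genes of 2 or more probe sets lying on one side. Of 14 fate factors kept, Sox2 and Snai1 were higher, both on the study's list, and Zeb2 had 0.52 and 0.41 in 2 probe sets. Immediate early genes had a median of 0.13 over 19 kept. Of the 19, 3 were higher (Junb, Ccn1 and Ccn2), against 2.05% of all genes kept. Fos was at 0.33 and Jun at 0.29, and the phosphatase Dusp1 was at -0.36.

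Of 22 prostaglandin genes matched only 4 were kept, all with ratios above 0 and a median of 0.49, and 2 of the 4 were higher by 1.5-fold against 2.05% of all genes kept. Ptgs2, the inducible cyclooxygenase, read 316 with vehicle, 679 with BMP-2 and 194 with siENG. Its 2 probe sets gave ratios of 1.10 and 1.16, and on the siENG array both lay below vehicle. Ptger4, a prostaglandin E2 receptor, read 449, 685 and 307, with its arrays ranked alike. Pla2g4a, which releases arachidonic acid, read 918, 1170 and 953. One name on the study's list of induced genes, PTGD2, matched no gene here. The study also listed PTGD2 as endoglin-dependent, and Ptgs2 was likewise lower with siENG than with siCont BMP-2. Whether PTGD2 stands for Ptgs2 was not settled. Ptgs2 is therefore counted outside the lists, also among the 5 genes there that were higher by 2-fold.

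Inflammatory genes were mixed. Of 9 cytokine and chemokine genes kept from 36 matched, only the interleukin-1 receptor Il1r1 was past 1.5-fold, at 148 with vehicle, 269 with BMP-2 and 218 with siENG. The chemokine Ccl2 was at -0.50, Cxcl12 at 0.16 and Il6 at -0.01. Among 9 acute-phase and complement genes kept, Orm2, a plasma glycoprotein, read 85.9, 218 and 97.8, a ratio of 1.34, and its relative Orm1 read 453, 601 and 557. Orm1 and Orm2 are near-identical copies, so how their probes divide the signal is uncertain. Haptoglobin (Hp), the lowest of all genes kept at -2.08, was on the study's list. Cd59a, which blocks complement lysis, read 510, 326 and 363, with -0.65 and -0.32 in 2 probe sets, and lipocalin-2 (Lcn2) was at -0.52.

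Interferon-stimulated genes mostly lay below 0. Over all genes kept, 3077 of 6723 had ratios below 0 and the median was 0.02. Of 19 kept from 45 matched, 16 had ratios below 0 and the median was -0.19, yet only 1 was lower by 1.5-fold. This was Bst2, or tetherin, which holds enveloped viruses at the cell surface, at 328 with vehicle, 191 with BMP-2 and 1404 with siENG. Ifitm2 had -0.39, and 3 probe sets of Ifi35 lay between -0.58 and -0.16. The classical class I genes H2-D1 and H2-K1 were at -0.22 and -0.07. Irf5, the only higher member, was on the study's list.

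Lipid storage genes also mostly lay below 0, with a median of -0.26 and 10 of 14 kept below 0, none of them past 1.5-fold. Over all genes kept, 3077 of 6723 were below 0. The triglyceride lipase Pnpla2 was at -0.53, the retinaldehyde dehydrogenase Aldh1a1 read 2481 with vehicle, 1859 with BMP-2 and 1590 in siENG cells, and the lipid droplet coats Plin2 and Plin4 were at -0.37 and -0.30. The fatty acid carriers were on the other side. Fabp4 read 261, 397 and 252, a ratio of 0.60, Fabp5 had 0.29 and 0.39 in 2 probe sets, and Fabp7 was on the study's list.

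Housekeeping groups gave ratios close to 0. All 67 respiratory chain subunits kept lay between -0.35 and 0.21, with a median of -0.01, and all 38 ribosomal protein genes lay between -0.06 and 0.33, also with a median of -0.01. Glycolysis, cholesterol and fatty acid synthesis, and the Nrf2 antioxidant response had none past 1.5-fold of 18, 27 and 27 kept, with medians of 0.01, 0.05 and -0.05. Of 63 cell cycle genes kept, Rrm2 alone was past 1.5-fold, and it was on the study's list. The members next farthest from 0 were all short of 1.5-fold. Cdk6 read 471 with vehicle, 329 with BMP-2 and 268 with siENG, with -0.52 and -0.57 in 2 probe sets, Cdkn2b was at -0.50, and Cdkn1b was at -0.35. The proliferation marker Mki67 was at -0.15.

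Stress genes differed one by one. Of 22 p53 targets kept, 1 was higher and 1 was lower, against 2.05% and 0.892% of all genes kept. Each of the 2 was past the limit on 1 siCont array only. The BH3-only protein Pmaip1 was higher, at 140 with vehicle, 268 with BMP-2 and 155 in siENG cells. Sesn2, a stress-induced inhibitor of mTORC1, was lower, at 176, 95.9 and 221. A relative, Sesn3, had -0.55 and -0.47 in 2 probe sets, and Sesn1 was at -0.31. Ddit4, another inhibitor of mTORC1 that hypoxia and stress induce, read 1452, 943 and 2432. In Ddit4 and in the brightest probe set of each sestrin the siCont BMP-2 array was lowest. The other probe set of Sesn2 was below the limit and did not share this, at 76.9, 91.3 and 151, and the second of Sesn3 was lowest with siENG, at 257, 176 and 151. Trib3, a pseudokinase of the amino acid response, read 206, 312 and 456, with 0.60 and 0.30 in 2 probe sets. Hypoxia targets had a median of -0.06 over 19 kept. Bhlhe40, a repressor that belongs to both the hypoxia and the clock lists, read 329, 671 and 1533, a ratio of 1.03 on 1 probe set, and no other clock gene of 10 kept was past 1.5-fold.

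Most genes past 1.5-fold outside the study's lists belonged to none of the groups above, with 114 of 151 in no group. Among genes with 2 or more probe sets outside the study's lists, 0.605% were higher and 0.202% lower in every one. The 20 highest and 20 lowest of these by their least extreme probe set are given by the role of each gene. The roles were assigned after the genes were known and no count over such roles was made, and some of these genes were short of 1.5-fold in the brightest probe set.

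Enc1, an actin-associated Kelch protein, read 735 with vehicle, 1423 with BMP-2 and 835 with siENG, with 0.95 and 1.04 in 2 probe sets. Dlc1, a GTPase-activating protein, read 455, 697 and 572, with 0.61 and 0.79. Rnd3, an atypical small GTPase, read 741, 1102 and 808, with 0.57 and 0.60. In the brightest probe set these genes were highest on the siCont BMP-2 array. Rhou, a relative of Cdc42, read 136, 198 and 185, and the Cdc42 effector Cdc42ep3 was lower, at 451, 260 and 416, with -0.79 and -0.84. Gas2l3, which links actin to microtubules, read 1149, 770 and 763, with 3 probe sets between -0.59 and -0.50. The actin-binding protein Rai14 had 0.58 and 0.77, and the membrane skeleton protein Epb41l1 had 3 probe sets between 0.60 and 0.86.

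The clathrin and actin adaptors Hip1 and Hip1r were both higher. Hip1 read 346 with vehicle, 580 with BMP-2 and 498 with siENG, with 0.75 and 0.57 in 2 probe sets, and Hip1r read 224, 380 and 249, with 0.76 and 0.90. Epn2, an epsin of the same endocytic machinery, was lower, at 228, 149 and 212, with -0.62 and -0.69. Adaptors of 1 process thus lay on both sides of 0.

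Runx1, a Runt domain factor, read 305 with vehicle, 549 with BMP-2 and 418 with siENG, with 0.85 and 0.79 in 2 probe sets. Hmga2, a chromatin protein of embryonic mesenchyme, read 879, 1329 and 1925, with 3 probe sets between 0.60 and 0.82. Both were higher on the BMP-2 arrays than with vehicle. Irf2bpl, a nuclear zinc finger protein, was lower, at 733, 394 and 397, with -0.89 and -0.46. Pim3, a kinase that promotes survival, read 655, 386 and 1085, with -0.76 and -0.63, so that the siENG array was highest. Usp2, a deubiquitinase, read 334, 212 and 328, with -0.65 and -0.59.

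Among metabolic genes, the creatine transporter Slc6a8 read 695 with vehicle, 1344 with BMP-2 and 1251 with siENG, with 0.95 and 0.75 in 2 probe sets. Acsl4, which activates arachidonic acid, read 471, 748 and 574, with 3 probe sets between 0.67 and 0.87. Atp2c1, a calcium and manganese pump of the Golgi, read 401, 667 and 620. Ivd, a mitochondrial enzyme of leucine breakdown, was lower, at 432, 246 and 304, with -0.81 and -0.53. Acaa2, of beta-oxidation, had 3 probe sets between -0.71 and -0.43, of which the brightest was short of 1.5-fold. Pdp1, which activates pyruvate dehydrogenase, had -0.42 and -0.46. These enzymes were not in the gene lists, and no count over their pathways was made.

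Aebp1, a secreted protein that binds collagen, read 714 with vehicle, 1149 with BMP-2 and 1993 with siENG, with 0.69 and 0.78 in 2 probe sets. It and Hmga2 stood highest on the siENG array. Smaller differences with probe sets on one side of 0 were measured for the Ras relative Rras2 (0.55 and 0.67), and, below 0, for the autophagy protein Gabarapl1 (-0.48 and -0.47), the glutaredoxin Glrx (-0.50 and -0.41), Medag (-1.10 and -0.47), Zcchc24 (-0.76 and -0.46), Afap1l2 (-0.77 and -0.42), 3 probe sets of the RNA-binding protein Celf2 (-0.86 to -0.42) and 3 of 1700025G04Rik (-0.55 to -0.43). Beside the named genes, 13 probe sets without a single gene were higher by 1.5-fold or more and 2 were lower.

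**Figure D3:**
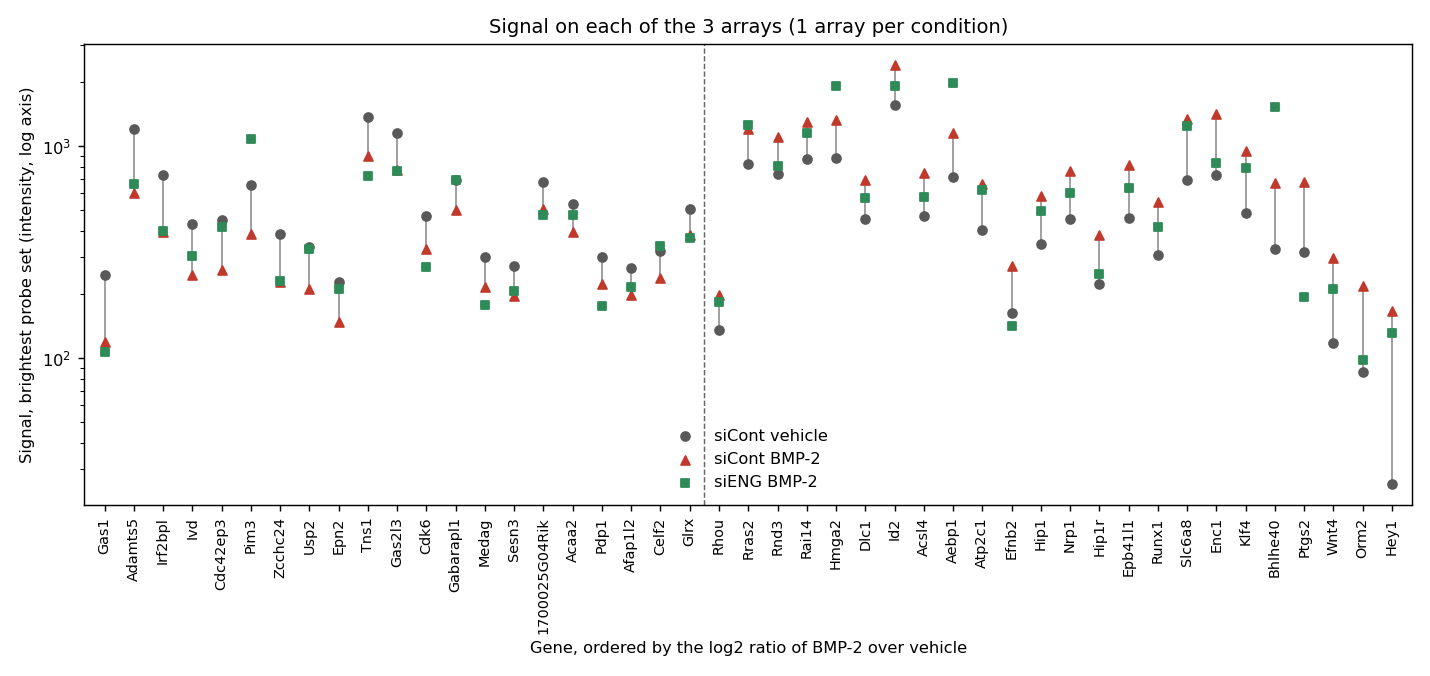
Signal of the brightest probe set (vertical, log axis) on each array for the genes outside the study's lists that differed by 2-fold or more or were among the 20 highest and 20 lowest whose probe sets all lay on one side of 0, ordered by log2 ratio with the lower genes left of the dashed line. Circles are siCont vehicle, triangles siCont BMP-2 and squares siENG BMP-2, 1 array each with no error; signals compare arrays within a gene and not genes with each other, and for Ptgs2 and Efnb2 the siENG square lies below the vehicle circle.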

How the data were processed

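Total RNA of 3 cultures was hybridised to Affymetrix mouse genome arrays, 1 array per condition, and the number of arrays limits the precision. The values deposited by the authors are linear intensities, with 1 value for a probe set on an array. GCOS 1.4 is named in the submitters' processing notes. In the sources used here, no scaling is given for GCOS. Intensities were used without further scaling, with 0.1 in place of the 4 signals listed at 0 on the siCont arrays, and 64 control probe sets were left out.

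Genes were named through the platform annotation, with symbols updated for 34741 probe sets through gene identifiers of RefSeq (GRCm38.p6). The annotation gave 34945 probe sets a single gene, 932 several genes and 9160 no gene. A gene was represented by its probe set of highest mean log2 signal over both arrays.

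The 45 gene lists held 1483 distinct genes, of which 1363 were matched and 700 kept; the unmatched genes are not analysed here. Members and lists were chosen with earlier results of these data known. Genes named in the text are those outside the study's lists with a ratio of 2 or more or 0.5 or less, the 20 highest and 20 lowest among those whose probe sets (2 or more) lay on one side of 0, the 4 members (or fewer) farthest from 0 in each list, and a few list members named after their values were seen, for their role. Of 80 names in the study's lists, 6 matched no gene. Promoter windows came from the RefSeq table, which held 44 of 54 genes looked up and neither Id1 nor Hey1.

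Alternatives were other signal limits, 4 other scalings and other rules for the probe sets of a gene. The calculation of the ratios was run on simulated data with planted differences. All probe sets past the limit had the same noise there, unlike the measured spread. It therefore checks the calculation and not the precision of the ratios. The tools were pandas 2.3.3, numpy 2.4.6, statsmodels 0.14.6 (lowess), scipy 1.17.1 and, for plots, matplotlib 3.10.9, under Python 3.11.15.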

Additional observations from a re-analysis of the deposited data

How the results depend on the processing

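With 1 array per condition, no value has a replicate error, and no list or gene was tested. No paired analysis was possible because each condition has 1 array and no replicate number is shared. Counts of called genes rest on the signal limit. With the limit at the median signal of 23, where ratios of dim probe sets spread widely, 532 genes were higher and 471 lower by 1.5-fold or more, and 194 and 169 by 2-fold or more. With 2 times the limit the counts were 83 and 26 at 1.5-fold and 21 and 2 at 2-fold. With both signals at the limit, 39 genes were lower at 1.5-fold, and 21 were higher and 2 lower at 2-fold. Where all of 2 or more probe sets had to be past the fold, 29 and 7 remained at 1.5-fold and 10 and 1 at 2-fold. At 1.5-fold 95 higher and 44 lower genes had a single probe set and could not count, and the others that were lost had a probe set short of the fold. The 4 scalings moved the median of all genes by at most 0.03.

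Most list medians moved by less than the spread between probe sets, in 352 combinations of list and alternative against 15 that moved further. With the limit at the median signal, the median was 0.66 for BMP targets, 0.16 for homeobox genes, 0.12 for Krueppel-like and Egr factors, -0.071 for cytokines, 0.35 for prostaglandin genes and 0.053 for acute-phase genes, so that cytokines and acute-phase genes crossed 0. With 2 times the limit it was 0.79 for BMP targets, 0.28 for ligands, receptors and Smads, -0.15 for IGF genes, 0.75 for homeobox genes, 0.61 for prostaglandin genes and -0.044 for lipid genes. With both signals at the limit it was 0.79 for BMP targets. With the mean over probe sets it was 0.26 for TGF-β targets and 0.019 for cytokines. Of the log2 ratios of named genes, 1551 moved by less than that spread and 25 by more.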
